A study of Rattus norvegicus with 12 samples.

Results

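Igf2, Igf1 and Igf1r, the genes of both insulin-like growth factors and of the receptor they share, were followed across the brain and testis of wild-type and transgenic rats. They are 3 of 25908 genes in the authors' deposited table, and they were chosen by identifier: ENSRNOG00000020369 for Igf2, ENSRNOG00000004517 for Igf1 and ENSRNOG00000014187 for Igf1r. The names of these genes come with that choice and not from the table, which holds identifiers alone. All rats were adult male Sprague Dawley animals aged 15 weeks. The 4 groups were wild-type brain, transgenic brain, wild-type testis and transgenic testis, with 3 libraries each, and the transgenic rats carried human DNMT3A, a DNA methyltransferase that adds methyl groups to unmethylated cytosines. What promoter drives the transgene, which founder lines were used and which region of brain was taken were not stated in the labels. The labels do not say whether the libraries of a group came from separate rats, so the p-values speak only of spread among these libraries, which may be technical.

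IGF1 and IGF2 are small secreted proteins related to insulin. Both act on cell growth and survival through the IGF1 receptor, a tyrosine kinase in the cell membrane. IGF1 carries much of the effect of growth hormone and is also made locally in many tissues. Igf2 is imprinted: in most fetal tissues it is read from the paternal copy, under the control of a methylated region that lies between it and H19. After birth its transcript falls in most rodent tissues, and in adult rodent brain it is known mainly from the choroid plexus and the meninges. In the testis, IGF1 is made by Leydig and Sertoli cells among others. The table gives 1 value per gene and library, so the parental copies were not told apart.

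The stretches of DNA before the start sites are shown because DNMT3A acts on cytosines that precede a guanine (CpG sites), and the 3 genes differ in how many of these they hold there. RefSeq's table of rat promoters (assembly GRCr8, a later build than the Rnor_6.0 of the deposited data) matched all 3 symbols and gave 4 windows, since Igf2 had 2 starts. Each window is the 250 bases before the start, written 5′ to 3′ on the strand of the gene, with CpG sites in capitals.
Igf2, upstream start, chr1:207253981-207254230, minus strand: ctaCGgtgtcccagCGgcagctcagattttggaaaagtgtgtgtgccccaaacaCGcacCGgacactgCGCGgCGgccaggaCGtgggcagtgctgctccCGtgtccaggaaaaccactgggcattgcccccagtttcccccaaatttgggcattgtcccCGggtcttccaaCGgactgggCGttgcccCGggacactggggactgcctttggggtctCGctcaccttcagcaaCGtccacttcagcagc
Igf2, downstream start, chr1:207250476-207250725, minus strand: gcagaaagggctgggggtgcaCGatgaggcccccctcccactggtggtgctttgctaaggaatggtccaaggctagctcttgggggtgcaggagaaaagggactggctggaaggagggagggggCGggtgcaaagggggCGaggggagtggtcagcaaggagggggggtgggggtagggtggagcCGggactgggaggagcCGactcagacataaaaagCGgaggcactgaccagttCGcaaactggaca
Igf1, chr7:24172282-24172531, plus strand: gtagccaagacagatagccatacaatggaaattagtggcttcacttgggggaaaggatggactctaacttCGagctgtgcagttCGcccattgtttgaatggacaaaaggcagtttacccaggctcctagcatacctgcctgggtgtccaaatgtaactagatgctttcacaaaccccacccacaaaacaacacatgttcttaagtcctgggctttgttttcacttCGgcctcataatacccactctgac
Igf1r, chr1:130959747-130959996, plus strand: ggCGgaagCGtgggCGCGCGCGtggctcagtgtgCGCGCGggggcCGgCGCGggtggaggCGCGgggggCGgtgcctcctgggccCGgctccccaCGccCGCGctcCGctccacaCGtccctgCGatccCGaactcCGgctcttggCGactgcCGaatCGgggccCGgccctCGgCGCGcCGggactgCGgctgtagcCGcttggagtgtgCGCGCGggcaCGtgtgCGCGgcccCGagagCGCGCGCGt

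The Igf1r window held 45 CpG sites at 79.6% G or C, more sites than 99.6% of the 33465 rat promoter windows. The Igf2 windows held 15 sites at the upstream start and 7 at the downstream start, above 74.2% and 54.8% of windows. The Igf1 window held 3 sites at 46.8% G or C, above 28.6% of windows, and the median window held 5. The letters GGGCGG, searched on both strands, stood once each in the Igf1r window and in the window of the downstream Igf2 start, and 30.5% of all windows hold them. The letters TATAAA, searched on both strands, were in none of the 4 windows and are in 12.9% of all windows. Methylation was not measured in the data used here, so these windows describe the genes and say nothing of their state in these rats. In the same assembly Igf2 lies between H19 and Ins2 and holds the microRNA gene Mir483. A predicted coding gene, LOC102548568, overlaps Igf2, the genes Pgpep1l and LOC134483685 overlap Igf1r, and the treatment of strand in counting is not given, so reads of overlapping genes may be mixed.

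**Figure D1:**
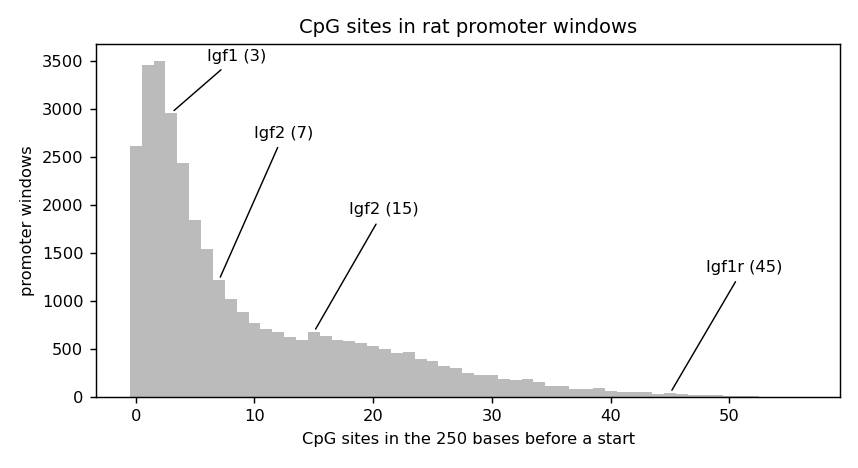
Number of rat promoter windows (vertical axis) by the number of CpG sites in the 250 bases before a start (horizontal axis, RefSeq GRCr8), with grey bars for all 33465 windows and labels for those of the 3 genes. Igf1 at 3 sites lies below the median of 5, the Igf2 windows lie at 7 and 15, and Igf1r lies at 45 in the upper tail.

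Values are FPKM, fragments scaled to gene length and to the reads of the library. Library totals recovered from the steps of these values ran from 14004547 to 16112149 reads. Libraries correlated with r of at least 0.966 within a tissue and at most 0.226 between tissues, across 16100 genes that are not independent replicates. Marker genes of brain and testis cells were not analysed here, because no table paired the identifiers with names. The human transgene was not analysed either, and the build named for the data, Rnor_6.0, is that of the rat. Wild-type brain replicate 2 stood apart: the summed level of 203 genes abundant in testis and near 0 in brain was 1.59% of that in testis, against 0.0511% to 0.330% in the other brain libraries. At that share, testis RNA would account for 0.608% of the Igf2 value, 5.12% of the Igf1 value and 1.41% of the Igf1r value of that library.

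The members were expressed at low to middle levels. Igf2 means stood above 38.8% to 53.8% of the listed genes, Igf1 means above 47.0% to 64.3% and Igf1r means above 57.1% to 59.0%, over the 4 groups. In each of the 6 brain libraries the order of levels by FPKM was Igf1r, then Igf2, then Igf1. In each of the 6 testis libraries it was Igf1, then Igf1r, then Igf2. The ligands thus changed places with tissue, while the receptor lay above both in brain and between them in testis. How often other sets of genes change order between the tissues was not computed. Both orders rest on gene length, which the steps of the values gave as 1925 bp for Igf1, 4101 bp for Igf1r and 5641 bp for Igf2. By reads alone, Igf1 was above Igf1r in only 2 of 6 testis libraries, with 97 to 174 reads against 158 to 195, and Igf2 was above Igf1r in 2 of 6 brain libraries, wild-type replicates 2 and 3.

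**Figure D2:**
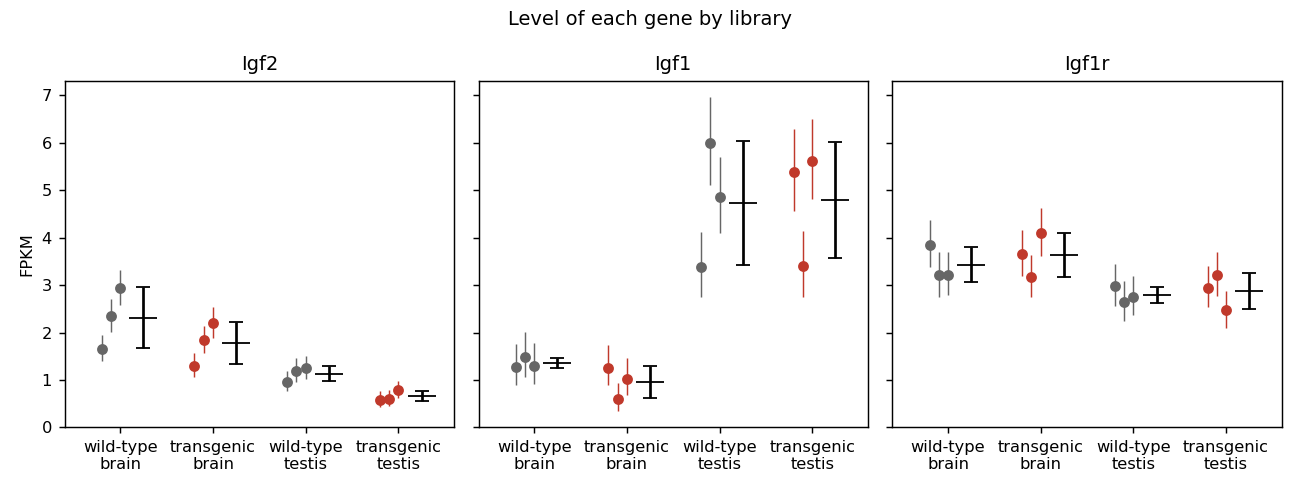
FPKM (vertical axis) of Igf2, Igf1 and Igf1r in each library, drawn as points (wild type in grey, transgenic in red) with 95% exact Poisson intervals that cover counting error only, and with each group's mean ± SD (n = 3) in black. Igf2 is higher in brain and Igf1 in testis in both genotypes. Igf2 in transgenic testis, at 0.588 to 0.781 FPKM, lies below wild-type testis, an order that 7.25% of 20910 genes showed. This genotype difference was not called.

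Igf2, the imprinted ligand, was highest in wild-type brain and lowest in transgenic testis. In wild-type brain it stood at 1.65, 2.34 and 2.94 FPKM in replicates 1, 2 and 3, and in transgenic brain at 1.30, 1.84 and 2.20 FPKM. These ranges overlapped, and the highest values were in replicate 3 of each genotype. In wild-type testis Igf2 stood at 0.956, 1.19 and 1.24 FPKM, and in transgenic testis at 0.588, 0.598 and 0.781 FPKM. Every transgenic testis library lay below every wild-type one, as in 7.25% of 20910 genes averaging at least 0.1 FPKM in testis. That genotype difference was not called. Every testis library lay below every brain library. Within wild-type rats alone 48.8% of genes had all testis libraries below all brain libraries, and within transgenic rats alone 47.7%. The share of genes with this order over both genotypes together was not computed. The means were 2.31 ± 0.642 FPKM in wild-type brain, 1.78 ± 0.450 in transgenic brain, 1.13 ± 0.153 in wild-type testis and 0.656 ± 0.109 in transgenic testis (SD, n = 3 each). In order of level, only the neighbours wild-type and transgenic brain overlapped.

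The tissue difference of Igf2 passed the test in both genotypes. Brain minus testis was 0.76 on the scale of log2(FPKM + 0.5) in wild-type rats (SE 0.20, 95% interval 0.29 to 1.24, limma adjusted p = 0.0086), a 2.04-fold ratio of means. In transgenic rats it was 0.97 (SE 0.19, interval 0.52 to 1.41, limma adjusted p = 0.0016), a 2.72-fold ratio. A tissue call is common in these data: 89.7% of 16115 genes were called in wild-type and 89.1% of 16102 in transgenic rats, and 77.5% and 71.4% of the genes tested differed more than Igf2. The Igf2 call held in all 18 alternatives for each genotype, although the looser threshold of 0.1, counted among them, could not remove it. With scaling to the median gene the difference was 0.54 and 0.76. In these bulk tissues, fewer cells that make a transcript and less of it per cell cannot be told apart.

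The genotype difference of Igf2 pointed the same way in each tissue but was not called in either. In testis the transgenic mean was 42.0% lower than the wild-type mean, a 1.72-fold ratio. Because Igf2 averaged under 1 FPKM over the testis libraries, it was below the minimum for testing there, and its test comes from a fit with the minimum lowered to 0.1 FPKM. That fit gave -0.50 on the log2 scale (SE 0.17, interval -0.89 to -0.10), with an unadjusted p of 0.021 and a limma adjusted p of 0.37. In this fit 0.392% of 20910 genes were called, 10.2% had an unadjusted p under 0.05, and 7.25% had every transgenic library below every wild-type one, as Igf2 did. The reads behind the values were 82 to 112 in wild-type and 50 to 71 in transgenic testis. The counting intervals of single libraries (95%, exact Poisson) overlapped in 4 of the 9 pairs of a wild-type and a transgenic library; that of wild-type replicate 3, which began at 1.02 FPKM, overlapped none of the transgenic ones. Without single libraries the difference ran from -0.58 to -0.45, and the unadjusted p rose above 0.05, to between 0.057 and 0.066, without wild-type replicate 2 or 3 or transgenic replicate 1 or 2. With voom on the recovered reads, which adds no such constant to FPKM, the difference was -0.78 with an adjusted p of 0.13.

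In brain the transgenic Igf2 mean was 23.0% lower than the wild-type mean, with 2 of 9 pairs of libraries in the opposite order. The log2 difference was -0.30 (SE 0.24, interval -0.87 to 0.27, limma adjusted p = 0.87), where 0.116% of 13827 genes were called. It ran from -0.47 without wild-type replicate 1 to -0.14 without transgenic replicate 1, and was -0.14 without wild-type replicate 3 also. The interval holds both 0 and the -0.50 estimated in testis. The genotype difference in brain minus that in testis was 0.20 on the log2 scale for Igf2 (interval -0.42 to 0.82, limma adjusted p = 0.91, minimum 0.1 FPKM), against 0.286% of 16780 genes called, so a difference between the tissues was not shown. It was 0.022 without wild-type brain replicate 1, 0.070 without transgenic brain replicate 3 and 0.36 without wild-type brain replicate 3 or transgenic brain replicate 1.

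Igf1, the ligand known as the mediator of growth hormone, had the opposite tissue pattern. In testis it stood at 3.38, 5.99 and 4.85 FPKM in wild-type replicates 1, 2 and 3, and at 5.37, 3.40 and 5.61 FPKM in transgenic ones. The genotypes overlapped, with 1 library of each near 3.4 FPKM. In brain it stood at 1.28, 1.48 and 1.30 FPKM in wild type and at 1.26, 0.596 and 1.03 FPKM in transgenic rats. All brain libraries lay below all testis libraries. Within wild-type rats alone 42% of genes showed that order, and within transgenic rats alone 41.8%, while the share over both genotypes together was not computed. The means were 4.74 ± 1.31 FPKM in wild-type testis, 4.79 ± 1.22 in transgenic testis, 1.35 ± 0.112 in wild-type brain and 0.961 ± 0.338 in transgenic brain (SD, n = 3 each).

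Testis was 3.50-fold above brain for Igf1 in wild-type and 4.99-fold above it in transgenic rats. Brain minus testis was -1.47 on the log2 scale in wild type (SE 0.20, interval -1.95 to -0.99, limma adjusted p = 0.00035) and -1.86 in transgenic rats (SE 0.24, interval -2.42 to -1.29, limma adjusted p = 0.00014). Both calls held in all 18 alternatives, although the looser threshold of 0.1, counted among them, could not remove them. Of the genes tested, 58.9% and 49.9% differed more between the tissues than Igf1. The spread of Igf1 within testis was wide: its SD on the log2 scale was larger than that of 90.7% of genes of at least 1 FPKM in wild-type and 87.0% in transgenic testis.

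The genotype difference of Igf1 was not called. In testis it was 0.02 on the log2 scale (interval -0.55 to 0.59, limma adjusted p = 0.99), against 0.576% of 14572 genes called, and its sign turned in 5 of 18 alternatives. In brain the transgenic mean was 29.0% lower, with a log2 difference of -0.37 (SE 0.26, interval -0.97 to 0.24, limma adjusted p = 0.83). The brain ranges did not overlap, but only narrowly, at 1.26 against 1.28 FPKM, and 7.2% of the genes tested had all transgenic brain libraries below all wild-type ones. The value rests on few reads: 37 to 40 per wild-type and 18 to 37 per transgenic brain library. Transgenic brain replicate 2 had the 18 reads (95% exact Poisson interval 10.7 to 28.4), and without it the difference was -0.18. Between tissues the genotype differences of Igf1 differed by -0.39 (interval -1.13 to 0.35, limma adjusted p = 0.85), where 0.421% of 10917 genes were called. That value was -0.19 without transgenic brain replicate 2 or wild-type testis replicate 1, -0.59 without transgenic testis replicate 2 and -0.11 with library weights.

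Igf1r, the receptor, had the narrowest range of the 3 genes over the 12 libraries. In brain it stood at 3.85, 3.20 and 3.22 FPKM in wild type and at 3.65, 3.17 and 4.10 FPKM in transgenic rats. In testis it stood at 2.98, 2.64 and 2.75 FPKM in wild type and at 2.94, 3.21 and 2.47 FPKM in transgenic rats. The lowest of the 12 libraries was thus 2.47 and the highest 4.10 FPKM. The means were 3.43 ± 0.369 FPKM in wild-type brain, 3.64 ± 0.466 in transgenic brain, 2.79 ± 0.173 in wild-type testis and 2.87 ± 0.374 in transgenic testis (SD, n = 3 each). Within each tissue the genotypes overlapped. Brain lay above testis in 9 of 9 pairs of wild-type libraries, with no overlap, and in 8 of 9 pairs of transgenic ones. Of 16115 genes, 48.8% likewise had every wild-type brain library above every wild-type testis library. In order of level, wild-type brain and transgenic testis were neighbours and overlapped too.

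Igf1r means were 1.23-fold higher in brain than in testis in wild-type and 1.27-fold higher in transgenic rats, and neither difference was called. Brain minus testis was 0.25 on the log2 scale in wild type (interval -0.019 to 0.52, limma adjusted p = 0.070) and 0.30 in transgenic rats (interval -0.032 to 0.62, limma adjusted p = 0.078). The median gene itself lay 0.23 and 0.21 toward brain, so Igf1r lay near the middle of all genes: after scaling to the median gene its differences were 0.032 and 0.093, with adjusted p of 0.80 and 0.54. The wild-type difference was called without an intensity trend (adjusted p = 0.046) and with library weights (0.35 on the log2 scale, adjusted p = 0.015). The transgenic one was called with all 12 libraries in 1 fit (adjusted p = 0.041) and without transgenic brain replicate 2 (0.38, adjusted p = 0.048). Between genotypes Igf1r differed by 0.074 in brain (interval -0.26 to 0.41, limma adjusted p = 0.96) and by 0.030 in testis (interval -0.29 to 0.35, limma adjusted p = 0.96). The tissue by genotype term was 0.044 (interval -0.35 to 0.44, limma adjusted p = 0.99).

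**Figure D3:**
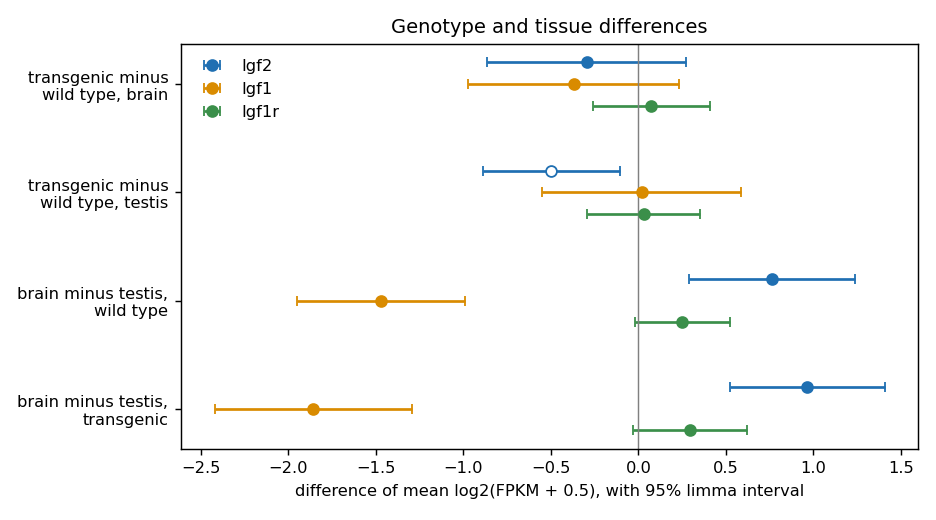
Difference of mean log2(FPKM + 0.5) (horizontal axis) with its 95% limma interval for Igf2 (blue), Igf1 (orange) and Igf1r (green) in each of 4 comparisons (vertical axis); the open point is from the fit with a minimum of 0.1 FPKM. The tissue differences of Igf2 (0.76 and 0.97) and Igf1 (-1.47 and -1.86) lie on opposite sides of 0, and of the genotype differences only Igf2 in testis (-0.50) has an interval that leaves out 0, without an adjusted call; leaving out any of 4 of the 6 testis libraries brings 0 into it.

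The share of Igf2 in the summed ligand FPKM of a library does not move with the scale of that library. The log2 ratio tested below can move with it, because 0.5 is added to each value. Igf2 made up 56.4%, 61.2% and 69.4% of the summed Igf1 and Igf2 FPKM in wild-type brain, and 50.8%, 75.6% and 68.1% in transgenic brain. In wild-type testis its share was 22.0%, 16.6% and 20.4%, and in transgenic testis 9.86%, 15.0% and 12.2%. Igf2 was the larger ligand in every brain library and the smaller in every testis library. In testis the share was 19.7% ± 2.79 in wild-type and 12.3% ± 2.55 in transgenic rats (SD, n = 3), and the ranges did not overlap. The share draws on the same Igf2 values as above, whose order 7.25% of 20910 genes showed, and is not separate support. How often other pairs of genes split in this way was not computed. On the scale of log2(FPKM + 0.5) the Igf2 to Igf1 ratio in testis was -1.66 ± 0.264 in wild-type and -2.17 ± 0.311 in transgenic rats (SD, n = 3), where the ranges did overlap. An exact two-sided permutation test gave p = 0.2, the smallest possible being 0.1. With a pseudocount of 0.1 in place of 0.5 the difference of the log2 ratio went from -0.51 to -0.73 and the exact permutation p was 0.1, so the overlap depends on that constant. In brain the ratio was 0.58 ± 0.334 in wild-type and 0.65 ± 0.551 in transgenic rats (SD, n = 3; exact permutation p = 0.9), and its direction turned without wild-type replicate 1 and without transgenic replicates 2 or 3.

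**Figure D4:**
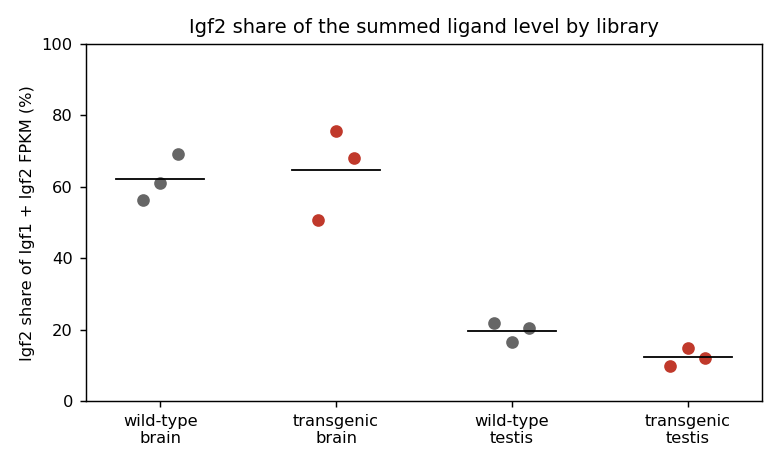
Igf2 as a percent of the summed Igf1 and Igf2 FPKM (vertical axis) in each library of the 4 groups, drawn as points (wild type in grey, transgenic in red) with a line at each mean of 3. All brain libraries lie between 50.8% and 75.6% and all testis libraries between 9.86% and 22.0%.

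The spread between libraries differed between the genes. Igf2 varied more than counting error in brain, with a coefficient of variation of 27.8% in wild-type and 25.3% in transgenic libraries, where counting alone gives 7.21% and 8.05%. In testis its variation was close to counting error, 13.6% against 10.1% in wild-type and 16.6% against 13.2% in transgenic libraries. Igf1 varied more than counting error in testis, by 27.6% against 8.49% in wild-type and 25.4% against 8.38% in transgenic libraries. In brain it varied by 8.31% in wild-type libraries, below the 16.2% that counting gives, and by 35.1% against 18.8% in transgenic ones, where replicate 2 was low. Igf1r varied by 6.21% to 13.0% over the 4 groups, with 6.61% to 7.57% from counting. With 3 libraries a group, these coefficients are descriptions and were not tested.

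Across the 12 libraries, the log2 levels of Igf2 and Igf1 correlated at -0.75, those of Igf1r and Igf1 at -0.78 and those of Igf2 and Igf1r at 0.49. These values take in the tissue difference the libraries share, and correlations within a tissue were not computed. The gene most like Igf2 over the 12 libraries had a correlation of 0.964, the next 0.951, and 0.385% of 16099 genes were above 0.9. For Igf1 the closest were at 0.983 and 0.977, and 32.6% of genes were above 0.9, as for many genes higher in testis. For Igf1r the closest were at 0.941 and 0.902. These genes carry identifiers without names and are not listed. Other genes of the pathway, such as the IGF2 clearance receptor, the binding proteins and the imprinted neighbours of Igf2, were not analysed here for the same reason.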

How the data were processed

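RNA was taken up in Trizol and made into libraries with the Illumina TruSeq RNA kit, per the labels' protocols. The submitters' processing notes name Bowtie 1.0.1 and the build Rnor_6.0; for the annotation, counting tool and use of strand, the sources used here give nothing. The authors deposited FPKM values for 25908 genes in 12 libraries. FPKM is a share of each library and falls when abundant genes take more of it. A RefSeq table (GRCr8, 47357 genes) matched 0 identifiers, so the lists of pathway and marker genes were not analysed.

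Reads were recovered as whole multiples of the FPKM steps, within 0.002 reads, in 100% of genes, where genes at 0 in every library counted as whole. After noise of about 1% was added to 300 genes with a value in every library, 0% did so. The percentages thus cover unlike sets of genes. Without molecular identifiers, reads are not independent molecules, and intervals cover counting error only. Genotypes and tissues were compared on log2(FPKM + 0.5) in limma 3.58.1 (R 4.3.3) with its trend option, for genes averaging at least 1 FPKM over the 6 libraries compared (in each tissue for the interaction). Tests were two-sided, with Benjamini-Hochberg adjustment over all genes tested and a threshold of 0.05. Differences on this scale understate changes of low genes. Scripts were tested on simulated reads, with changes planted only in genes of higher mean FPKM than Igf2 in testis or Igf1 in brain. That test therefore did not cover levels as low as these. Python 3.11.15 with numpy 2.4.6, pandas 2.3.3, scipy 1.17.1 and matplotlib 3.10.9 did the rest.

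Alternatives changed the pseudocount, filter, scaling, trend, library weights, unit, threshold, libraries fitted and replicate block. Those that joined the 0.1 FPKM filter with another choice for Igf2 were chosen after seeing the data, as was the class of testis genes (at least 100 FPKM in testis, median of at most 0.5 FPKM in brain). The rule named the 3 genes; these members and all lists were chosen with earlier results of these data known.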

Additional observations from a re-analysis of the deposited data

How the results depend on the processing

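The tissue differences of Igf2 and Igf1 kept direction and call in all 18 alternatives in each genotype. Among these, the threshold of 0.1 used the same fit, so a call could not be lost there. No genotype or interaction difference of the 3 genes was called in any alternative run. The smallest adjusted p was that of Igf2 in testis with voom, 0.13. For Igf1r, brain minus testis in wild type was called at 0.25 without a trend and at a threshold of 0.1, and at 0.35 with library weights. In transgenic rats it was called at 0.30 when all 12 libraries were fitted and at a threshold of 0.1, and ran from 0.21 to 0.38 without single libraries.

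Small differences changed sign. Igf1 in testis was -0.011 with quantile normalization and -0.18 with library weights, and -0.18 to 0.23 without single libraries. Without single libraries Igf1r ran from -0.0050 to 0.16 in brain and from -0.041 to 0.12 in testis. Its interaction was -0.086 with library weights and -0.045 to 0.13 without single libraries. The Igf2 to Igf1 ratio in brain ran from -0.15 to 0.38. The cause was not tested.

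Calls over all genes in brain numbered 16, against 40 when all 12 libraries were fitted, 27 at a threshold of 0.1, 7 with the pseudocount at 0.1 and 2 to 8 without single libraries. Testis calls numbered 84, against 196 with library weights, 190 with voom, 199 at a threshold of 0.1, 216 when all 12 libraries were fitted and 20 to 80 without single libraries. Interaction calls numbered 46, against 103 without a filter, 87 with library weights, 84 at a threshold of 0.1 and 25 to 44 without single libraries. Fewer libraries leave fewer degrees of freedom.

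The labels give no pairing, so the replicate numbers were not taken as pairs. The sample codes of brain and testis share these numbers and may mark the same rat, but the labels do not say so. Between brain and testis of the same genotype, correlations of the deviations of same-numbered libraries ran from -0.019 to 0.11. These cannot show whether the libraries came from the same rat. Between genotypes, where same-numbered libraries come from different rats, they ran from -0.25 to 0.11. With the replicate block, calls were 0 in brain (1088 genes had an unadjusted p under 0.05 without the block), 39 in testis and 1 for the interaction. No call for the 3 genes changed. In the genotype fits the block joined wild-type and transgenic libraries, so the brain and testis calls do not bear on a shared rat. Depth limits Igf1 in brain most, at 18 to 40 reads a library.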
